A study of Mus musculus with 18 samples.

Results

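The NMDA receptor subunits described here are a family of 6 genes fixed by name: Grin1, Grin2a, Grin2b, Grin2c, Grin2d and Grin3a. They were followed in fluorescence-sorted cortical interneurons of the mouse while these cells migrated, entered the cortical plate and settled. Of the 6 genes, 5 had a probe set that the array's annotation table pairs with that gene alone, with 11 such probe sets in all. Grin1 was not analysed here, since no probe set was paired with its symbol alone. Of the 5 measured genes, 3 (Grin2b, Grin2d and Grin3a) passed the filter on low values and were among the 14288 genes tested, and 2 (Grin2a and Grin2c) lay below it.

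NMDA receptors are cation channels, and those of Grin1 and Grin2 subunits open when glutamate and a co-agonist, glycine or D-serine, are both bound. Current through them also depends on depolarisation, which lifts a block by magnesium ions. Each channel combines the obligatory Grin1 subunit, which binds the co-agonist, with Grin2 subunits, which bind glutamate and set opening time and partners, or with Grin3 subunits, which lower calcium entry and magnesium block. In the rodent forebrain Grin2b and Grin2d are known as the subunits of the embryonic and newborn brain, Grin2a and Grin2c as subunits that appear later, and Grin3a as a subunit of the early postnatal period; migrating interneurons are known to respond to NMDA.

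The earliest cells, of embryonic day E14.5, were in tangential migration, those of E18.5 were invading the cortical plate, and those of postnatal day P2 were settling in the cortex. At each age the control brains had the genotype GAD65-GFP and the mutant brains Htr3a-KO;GAD65-GFP, so both carried the GAD65-GFP transgene, in which green fluorescent protein marks GABAergic cells, and the mutants also lacked Htr3a, an ionotropic serotonin receptor subunit. Each of the 6 groups had 3 arrays, from 3 litters, and each array was hybridised with RNA from a pool of at least 4 brains. Values are log2 signals of single probe sets, so that a difference of 1 is a doubling, and levels of different genes are not compared.

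The 18 arrays had medians between 6.35 and 6.45, and correlated at 0.9835 to 0.9956 within a group. Htr3a, the targeted gene, stood at 7.65 to 8.49 in the E14.5 controls against 7.19 to 7.41 in the E14.5 mutants; for E18.5 the controls lay between 9.64 and 10.79 and the mutants between 6.61 and 7.09, and for P2 between 8.61 and 9.11 and between 6.71 and 7.01. The labels do not say whether its probe set lies within the deleted stretch. Of the markers of the labelled cell type, Gad1, which makes GABA, lay between 10.88 and 12.34 on the 18 arrays. The mean level of the 7 GABAergic markers tested was lower in the P2 controls (8.95 to 9.28) than on 2 of the 3 E14.5 control arrays (8.97, 10.58 and 10.78), and markers of other cells were also present. Neurod6, a marker of excitatory cortical neurons, lay between 8.91 and 12.38, and Aqp4, the astrocyte water channel, rose from 3.29 to 4.22 on the E14.5 arrays to 9.78 to 11.62 on the P2 arrays. In such sorted bulk RNA, fewer cells of a type and less RNA per cell cannot be told apart.

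Promoter windows from RefSeq, on build GRCm38.p6, were at hand for 2 of the measured subunits, Grin2d and Grin2c; they are shown because the first was measured above the filter and the second below it on every group mean. The windows run from 250 bases before to 50 after the annotated start, on the minus strand, at chr7:45866632-45866931 for Grin2d and at chr11:115267194-115267493 for Grin2c. Capitals mark the letters GGGCGG or their complement CCGCCC, the core of the GC box, counted on both strands and with overlaps.

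Grin2d: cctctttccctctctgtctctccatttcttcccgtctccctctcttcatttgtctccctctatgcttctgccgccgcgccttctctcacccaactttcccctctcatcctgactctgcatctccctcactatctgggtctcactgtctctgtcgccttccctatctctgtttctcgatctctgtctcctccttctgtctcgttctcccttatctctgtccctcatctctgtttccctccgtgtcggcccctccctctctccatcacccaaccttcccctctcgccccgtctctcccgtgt
Grin2c: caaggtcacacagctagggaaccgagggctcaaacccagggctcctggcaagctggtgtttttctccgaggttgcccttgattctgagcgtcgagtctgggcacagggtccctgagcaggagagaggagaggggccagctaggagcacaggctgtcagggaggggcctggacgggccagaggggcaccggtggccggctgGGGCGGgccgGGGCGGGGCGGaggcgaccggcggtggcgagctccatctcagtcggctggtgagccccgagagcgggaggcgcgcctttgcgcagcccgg

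The Grin2d window holds 12 CpG dinucleotides, 56% G and C, and 0 copies of these letters. The Grin2c window holds 22 CpG dinucleotides, 70% G and C, and 3 copies. Of 32851 RefSeq windows of the same length, 35.7% hold at least 1 copy, and their medians are 7 CpG dinucleotides and 52.7% G and C. Grin1, which was not measured, has a window with 1 copy and 33 CpG dinucleotides. These counts describe the letters of the windows and nothing about which factors bind there.

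Grin3a rose at both age steps in the controls and Grin2b at the first only, while Grin2d did not pass the test and Grin2a and Grin2c lay low in the array's range. Grin3a, the subunit that lowers calcium entry, stood at 5.94, 6.13 and 5.58 on the 3 E14.5 control arrays, reached 7.38, 7.35 and 7.57 on the E18.5 arrays, and 8.93, 8.72 and 8.92 on those of P2. No array of an age overlapped one of the age before. The mean rose from 5.88 ± 0.28 to 7.43 ± 0.12 and then to 8.86 ± 0.12 (SD, n = 3). The first step was 1.55 (SE 0.14; 95% interval 1.25 to 1.85; adjusted p = 1.39e-05 by limma with Benjamini-Hochberg adjustment), or 2.93-fold, and the second 1.42 (SE 0.14; 1.12 to 1.73; adjusted p = 1.56e-05), or 2.68-fold. From E14.5 to P2 the rise was 2.97, or 7.85-fold (adjusted p = 4.82e-09), which ranked 108 among the 14288 genes by signed difference.

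Grin2b, the subunit with slow closing and high glutamate affinity that is typical of immature synapses, stood at 7.58, 8.12 and 8.35 in the E14.5 controls, followed by 9.64, 9.66 and 9.71 in those of E18.5, while the P2 controls read 10.53, 9.26 and 10.07. The E18.5 arrays lay close together and above every E14.5 array, while the P2 arrays spread to both sides of them. The means were 8.02 ± 0.40, 9.67 ± 0.04 and 9.95 ± 0.64 (SD, n = 3). The first step was 1.65 (SE 0.34; 95% interval 0.94 to 2.37; adjusted p = 0.00550 by limma), or 3.15-fold, and the second was 0.28 (interval -0.43 to 1.0003; adjusted p = 0.613). The difference from E14.5 to P2 was 1.94 (interval 1.22 to 2.65; adjusted p = 3.59e-04), or 3.83-fold, and 0.84 with the mean of its 4 probe sets (adjusted p = 0.00307). The value of the second step rested on the first P2 control array: without it the difference was -0.0050.

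Grin2d, the subunit with the slowest closing and little magnesium block, long known in interneurons, stood at 7.57, 7.23 and 6.73 in the E14.5 controls, with E18.5 values of 7.60, 7.83 and 7.96 and P2 values of 7.49, 7.52 and 8.10. Every E18.5 array lay above every E14.5 array, and the P2 arrays overlapped both ages. The first step was 0.62 (SE 0.21; 95% interval 0.18 to 1.06; adjusted p = 0.0692 by limma) and the second -0.09 (interval -0.54 to 0.35; adjusted p = 0.805). Neither passed, nor did the difference of 0.53 from E14.5 to P2 (interval 0.08 to 0.97; adjusted p = 0.0564). The Grin2d values depended on single arrays in both directions. Without the third E14.5 control array the first step was 0.40 (adjusted p = 0.270) and the difference to P2 was 0.30 (adjusted p = 0.270). Without the third P2 control array the difference to P2 was 0.33 (adjusted p = 0.256). The mean of both probe sets gave 0.37 (adjusted p = 0.0871) and 0.31 (adjusted p = 0.0757). In the other direction, without the first E14.5 control array the first step was 0.82 (adjusted p = 0.0328) and the difference to P2 was 0.72 (adjusted p = 0.0171). Leaving out the third P2 control array gave adjusted p = 0.0469 for the first step, and leaving out the first P2 control array gave adjusted p = 0.0459 for the difference to P2. The third E14.5 control array, where Grin2d was at its lowest of 6.73, also had the lowest mean level of GABAergic markers in its group, 8.97 against 10.58 and 10.78 on the other arrays. Its striatal projection neuron level was the lowest of the group as well, at 8.66. Its excitatory neuron (10.85), astrocyte (7.63), microglia (7.32) and endothelial and mural (6.50) levels were the highest of the group. The part of these marker levels in the Grin2d values was not tested.

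**Figure D1:**
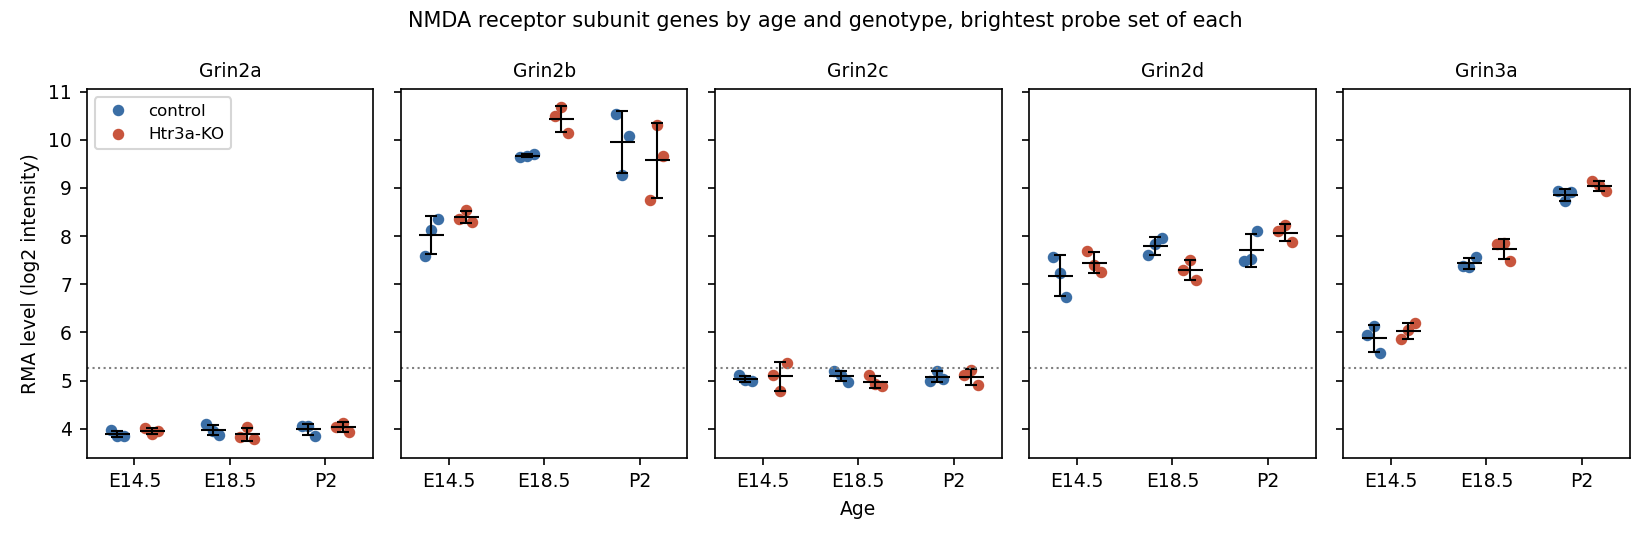
Log2 signal of the highest probe set of each measured subunit (vertical axis) on each of the 18 arrays, by age (horizontal axis) and genotype; points are arrays and bars are group means with SD. Grin3a climbs at each age in both genotypes, Grin2b climbs between E14.5 and E18.5 and spreads at P2, and Grin2a and Grin2c do not exceed 4.13 and 5.37; the dotted line is the filter level of 5.255.

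Read against the whole array, the share of genes called higher in the controls was 6.06% at the first step, 9.97% at the second and 18% from E14.5 to P2. Of the 3 tested subunits, 2 were called higher at the first step (Grin2b and Grin3a), 1 at the second (Grin3a) and 2 over both (Grin2b and Grin3a), and none was called lower. The median difference of the 3 was 1.55 at the first step, beside a median of -0.01 over all genes tested, and 0.28 at the second, beside -0.04.

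The subunits of the mature brain gave no such change. Grin2a, the fast-closing subunit that joins receptors after birth, lay between 3.78 and 4.13 over all 18 arrays, with means of 3.89 at E14.5 and 3.99 at P2 in the controls, a difference of 0.10 (adjusted p = 0.499 in a limma fit of the unfiltered probe sets). Grin2c, known best from cerebellar granule cells and glia, lay between 4.78 and 5.37, and its control means differed by 0.04 between E14.5 and P2 (adjusted p = 0.863). Grin3b, the other Grin3 subunit, which is not among the 6 genes, lay between 5.08 and 5.49, also below the filter on its mean over all arrays. Among all non-control probe sets, single-gene or not, the mean of Grin2a stood at percentile 10.2 and that of Grin2c at percentile 26.8. Grin2b stood at 84.8, Grin2d at 66.1 and Grin3a at 65.1. The percentiles place each probe set in the range of the array and are not levels of 1 gene against another, and a low signal does not show that a transcript was absent.

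Probe sets of 1 gene did not all report the same course. Grin2b had 4 probe sets. On its second, the E14.5 controls read 5.59, 5.59 and 5.92, the E18.5 controls 7.32, 7.25 and 7.50, and the P2 controls 7.50, 5.96 and 7.80. It rose by 1.66 at the first step (adjusted p = 0.0386 in the unfiltered limma fit) and followed the brightest probe set with a correlation of 0.87 over the 18 arrays. The remaining probe sets lay between 6.20 and 6.68 and between 5.41 and 6.27 on all arrays and correlated with the brightest at 0.23 and 0.16. Their first step was 0.21 (adjusted p = 0.273) and 0.26 (adjusted p = 0.297). Averaging the 4 probe sets gave a first step of 0.95 (adjusted p = 0.00626), smaller than the 1.65 of the brightest alone but past the threshold.

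Grin3a had 3 probe sets. The second read 6.19, 5.97 and 5.84 in the E14.5 controls, 6.77, 6.58 and 6.91 in those of E18.5 and 8.66, 8.74 and 7.89 in those of P2, and correlated with the brightest at 0.95. Its rise was larger at the second step, 1.68 (adjusted p = 3.17e-04 in the unfiltered fit), than its difference of 0.75 at the first (adjusted p = 0.0696), whereas the brightest probe set split the rise about evenly. The remaining probe set was dim, between 3.83 and 4.59. Grin2d had a second probe set, between 5.32 and 5.91 on all arrays, which correlated with the brightest at 0.36. Correlations here are descriptions over arrays that share age and genotype.

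**Figure D2:**
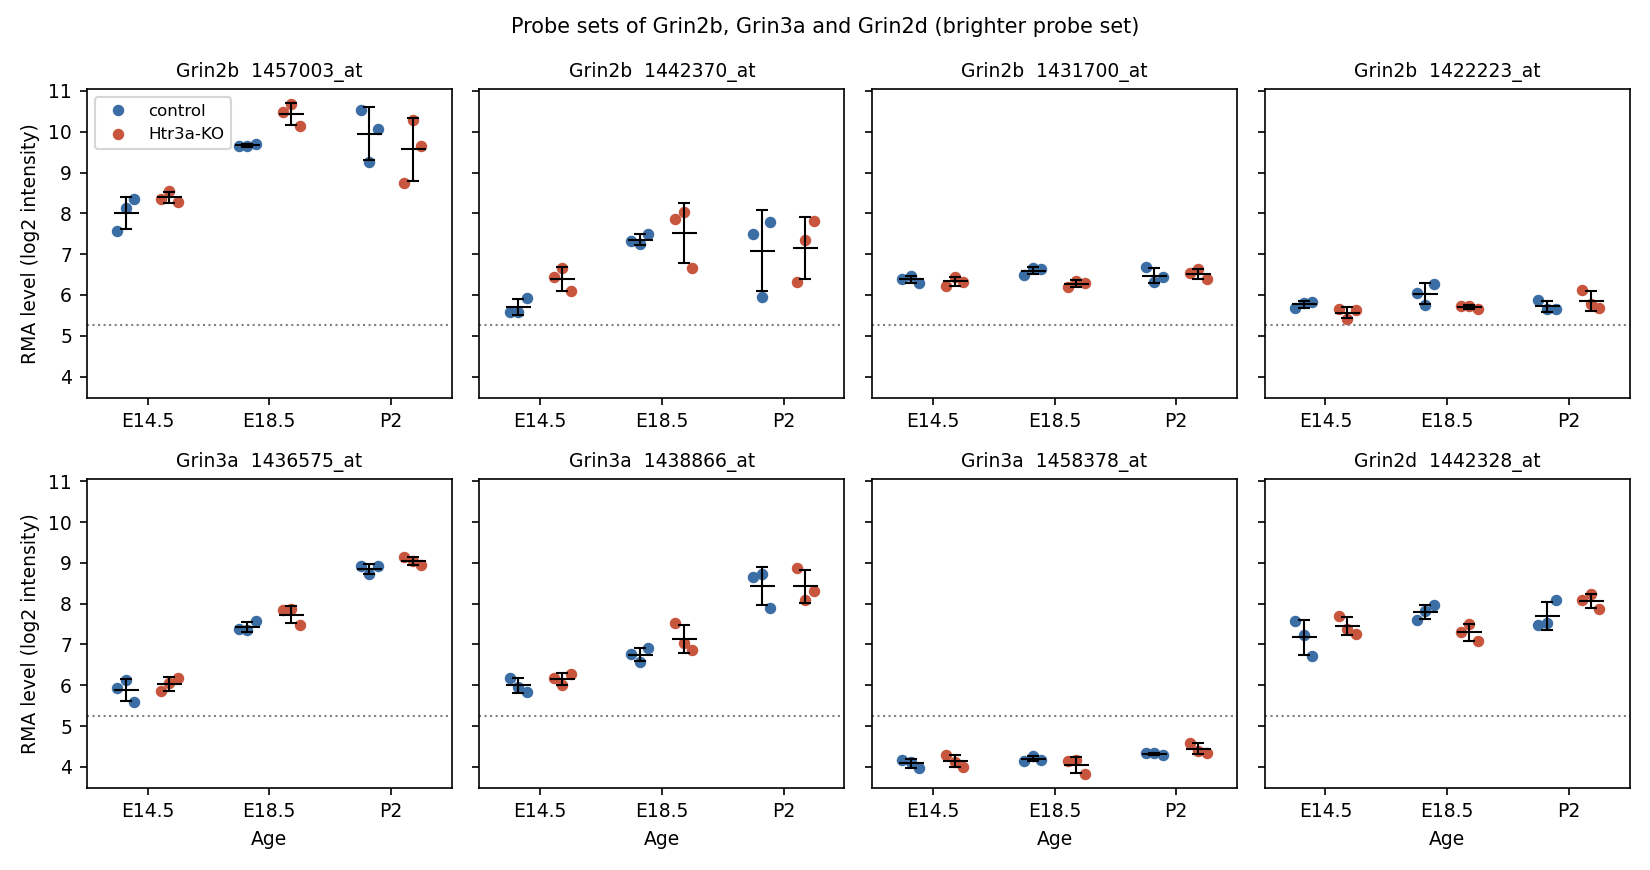
Log2 signal (vertical axis) of the 4 probe sets of Grin2b, the 3 of Grin3a and the brighter of Grin2d on the 18 arrays, by age (horizontal axis) and genotype, with group means and SD; the dotted line is the filter level. The 2 brighter probe sets of Grin3a climb at each age and those of Grin2b between E14.5 and E18.5, with P2 means below or near those of E18.5, while the 2 flat probe sets of Grin2b stay between 5.41 and 6.68.

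On their brightest probe sets the same 2 subunits rose at the first step in the Htr3a-KO cells. Grin3a read 5.86, 6.05 and 6.19 on the E14.5 arrays, then 7.84, 7.86 and 7.49 on the E18.5 arrays, and 9.15, 9.05 and 8.94 on the P2 arrays, again with no overlap between ages. Its steps were 1.70 (95% interval 1.39 to 2.00; adjusted p = 5.13e-06 by limma), or 3.24-fold, and 1.32 (1.01 to 1.62; adjusted p = 2.18e-05), or 2.49-fold, and the rise from E14.5 to P2 was 3.01, or 8.07-fold (adjusted p = 2.96e-09). The order of the 6 group means of Grin3a thus followed age: 5.88 and 6.03 for E14.5, 7.43 and 7.73 for E18.5, and 8.86 and 9.05 for P2, control before mutant at each age, and the neighbours of the same age did not pass the test.

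Grin2b in the mutants stood at 8.35, 8.54 and 8.29 on the E14.5 arrays, climbed to 10.49, 10.67 and 10.13 on the E18.5 arrays, and lay at 8.75, 10.30 and 9.66 on the P2 arrays. All E18.5 arrays lay above all E14.5 arrays, and 2 of the 3 P2 arrays lay below all E18.5 arrays. The first step was 2.04 (95% interval 1.32 to 2.75, adjusted p = 0.00130 by limma), or 4.10-fold, and 0.81 with the mean of the 4 probe sets (adjusted p = 0.0127). The second probe set alone rose by 1.12 at this step (adjusted p = 0.114 in the unfiltered limma fit). The flat ones moved by -0.05 and 0.14 (adjusted p = 0.768 and 0.510), so only the brightest passed by itself. The second step of the brightest was -0.86 (interval -1.58 to -0.14, adjusted p = 0.0677), which did not pass. It was -0.21 with the mean of the probe sets (adjusted p = 0.440) and -0.45 without the first P2 mutant array (adjusted p = 0.323). It passed with array quality weights (-0.84, adjusted p = 0.00932), without the second P2 mutant array (-1.23, adjusted p = 0.0154) and without the second P2 control array, which moves only the shared spread (adjusted p = 0.0427). From E14.5 to P2 the rise was 1.18 (interval 0.46 to 1.89, adjusted p = 0.0108), or 2.26-fold, and 0.60 with the mean of the probe sets (adjusted p = 0.0221). It no longer passed without the second P2 mutant array (0.81, adjusted p = 0.0663). On the second probe set alone it was 0.76 (adjusted p = 0.230 in the unfiltered limma fit), which did not pass.

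Grin2d in the mutants read 7.69, 7.39 and 7.26 on the E14.5 arrays, 7.30, 7.51 and 7.09 on the E18.5 arrays, and 8.10, 8.23 and 7.88 on the P2 arrays. The E14.5 and E18.5 arrays overlapped and the P2 arrays lay above both. The first step was -0.15 (95% interval -0.59 to 0.30; adjusted p = 0.656 by limma) and the second 0.77 (interval 0.33 to 1.21; adjusted p = 0.0131), or 1.71-fold. Without the third E18.5 mutant array the second step was 0.67 (adjusted p = 0.0563), and with the mean of both probe sets 0.49 (adjusted p = 0.0119). The difference from E14.5 to P2 was 0.62 (adjusted p = 0.0250), or 1.54-fold. It did not pass without E14.5 mutant array 2 or 3 (adjusted p = 0.0670 and 0.0898), without the first or second P2 mutant array (0.0585 and 0.0888), with array weights (0.0518) or with the mean of both probe sets (0.34, adjusted p = 0.0504). The second Grin2d probe set moved by 0.21 at the second step (adjusted p = 0.265 in the unfiltered fit).

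In the mutants the share of all genes called higher was 6.26% at the first step, 13.5% at the second and 15.6% from E14.5 to P2. Of the 3 tested subunits, 2 were called higher at the first step, 2 at the second and 3 over both. The count fell to 1 at the second step without the third E18.5 mutant array and to 1 over both steps without the second P2 mutant array. Grin3a was the member that was called in all of these mutant steps and in all control steps.

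Loss of Htr3a gave no call among the subunits at any age. At E14.5 the mutants differed from the controls by 0.38 for Grin2b (95% interval -0.34 to 1.09), by 0.27 for Grin2d (-0.17 to 0.71) and by 0.15 for Grin3a (-0.15 to 0.45), with adjusted p of 0.987, 0.960 and 0.994 by limma. At P2 the differences were -0.38 (-1.10 to 0.33), 0.37 (-0.08 to 0.81) and 0.19 (-0.11 to 0.49) in the same order of genes, with adjusted p of 0.811, 0.701 and 0.778. The Grin2b value at P2 rested on the first mutant array, since it was 0.027 without it. The intervals for Grin2b still include a doubling at E14.5 and a halving at P2, so these arrays bound its change only loosely.

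At E18.5 the groups of Grin2b and Grin2d did not overlap. The share of all genes without overlap at this age is not given here, so this only describes the values. Every mutant array of Grin2b (10.13 to 10.67) lay above every control array (9.64 to 9.71), and every mutant array of Grin2d (7.09 to 7.51) lay below every control array (7.60 to 7.96). The differences were 0.76 for Grin2b (95% interval 0.04 to 1.48; unadjusted p = 0.0391, adjusted p = 0.365 by limma) and -0.50 for Grin2d (interval -0.94 to -0.05; unadjusted p = 0.0303, adjusted p = 0.344). Grin3a differed by 0.30 (interval -0.01 to 0.60; adjusted p = 0.403) and its groups overlapped. None of the 3 passed after adjustment, and 1843 of all genes, or 12.9%, had an unadjusted p under 0.05 at this age. With array quality weights 876 genes were called in place of 3, among them Grin2b (0.91, adjusted p = 0.0370) and Grin3a (0.39, adjusted p = 0.0490).

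The probe sets of Grin2b did not share a direction in the E18.5 comparison of genotypes: the brightest differed by 0.76 and the second by 0.16, but the flat ones by -0.32 each (adjusted p = 0.196 and 0.281 in the unfiltered limma fit). The mean of the 4 differed by 0.07 (adjusted p = 0.885). Marker levels also differed between the E18.5 groups. The mean log2 level of the 10 astrocyte markers lay between 7.01 and 7.96 in the controls and between 8.07 and 8.35 in the mutants, and that of the 8 oligodendrocyte lineage markers tested between 8.55 and 9.34 and between 9.42 and 9.69, and that of the 8 endothelial and mural markers tested between 6.59 and 7.39 and between 7.37 and 7.93. None of these astrocyte and oligodendrocyte markers passed the limma test after adjustment while 6 of 10 and 3 of 8 had an unadjusted p under 0.05. The part of these cells in the Grin2b and Grin2d values was not tested.

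Averaged over the 3 ages, the mutants differed from the controls by 0.25 for Grin2b (95% interval -0.16 to 0.67; adjusted p = 0.644 by limma), by 0.05 for Grin2d (-0.21 to 0.30; adjusted p = 0.912) and by 0.21 for Grin3a (0.04 to 0.39; unadjusted p = 0.0210, adjusted p = 0.370). Across the array the share of genes called between genotypes was 0.0140% in the E14.5 comparison, then 0.0210% for E18.5, 0.0350% for P2 and 0.294% over the ages, so that few genes of any kind passed. The unadjusted p was under 0.05 for 0, 2, 0 and 1 of the 3 subunits in these comparisons, against 837, 1843, 1083 and 1599 of the 14288 genes. Markers of other cells differed between genotypes beside these values. At E14.5 the endothelial and mural level was 5.69 to 6.50 in the controls and 6.60 to 7.84 in the mutants, the microglia level 6.10 to 7.32 and 7.10 to 8.93, and the striatal level 8.66 to 10.44 and 7.78 to 9.13, with 5 of 8, 5 of 9 and 5 of 9 markers at an unadjusted p under 0.05. At P2 the excitatory neuron level was 8.45 to 8.65 in the controls and 7.39 to 8.39 in the mutants, with 5 of 11 markers at an unadjusted p under 0.05 and none called. Over the ages 7 of 8 endothelial and mural markers (median 0.82, 1 called) and 7 of 10 astrocyte markers (median 0.47, none called) had an unadjusted p under 0.05. Their part in the subunit values, the 0.21 of Grin3a included, was not tested.

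**Figure D3:**
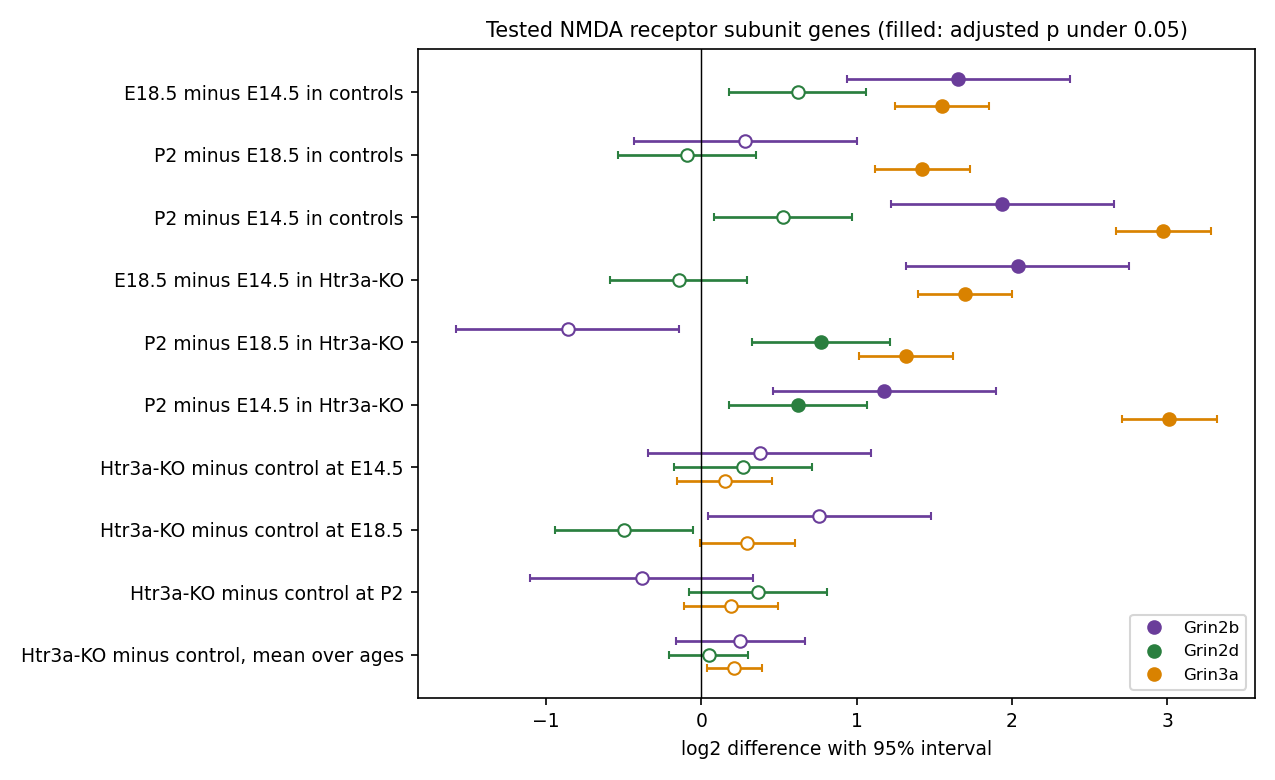
Log2 differences (horizontal axis) of Grin2b, Grin2d and Grin3a in the age comparisons of each genotype and in the comparisons of Htr3a-KO with control at each age and over the ages; points are differences of group means, filled where called, and bars 95% intervals. The age steps of Grin3a lie at 1.32 and above, and the intervals of the genotype differences include 0 apart from those of Grin2b and Grin2d at E18.5 and of Grin3a over the ages.

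Whether the age course differed between genotypes was tested as an interaction. Grin2d moved by 0.77 less in the mutants than in the controls at the first step (difference of steps -0.77, SE 0.29; unadjusted p = 0.0196, adjusted p = 0.685 by limma) and by 0.86 more at the second (SE 0.29; unadjusted p = 0.0101, adjusted p = 0.643). Grin2b differed by 0.38 at the first step and by -1.14 at the second (SE 0.48; unadjusted p = 0.0296, adjusted p = 0.685). Grin3a differed by 0.15 and -0.11, and its steps were of like size in both genotypes within SEs of 0.20. The joint test over both steps called 0% of genes, with 0 of 14288 passing and 1033 (7.23%) at an unadjusted p under 0.05; 1 of the 3 subunits, Grin2d, was among the latter. The call of Grin2d at the second step in the mutants and not in the controls is therefore not shown to be a difference between genotypes.

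Within P2 the arrays of Grin2b spread more than those of Grin3a, and their order was close to the reverse of the order of astrocyte marker level. The array with the lowest mean astrocyte marker level, 9.98 in the first control, had the highest Grin2b, 10.53. The third control stood at 10.26 with Grin2b at 10.07, and the second mutant at 10.36 with Grin2b at 10.30. The arrays with the higher marker levels had the lower Grin2b: 10.56 and 9.66 in the third mutant, 10.73 and 9.26 in the second control, and 11.003 and 8.75 in the first mutant. Grin3a kept within 8.72 to 9.15 on the same 6 arrays. Control and mutant arrays are interleaved in this order. Astrocyte markers were not alone in it. The mean level of the 9 cell cycle genes tested ran in the exact reverse of the Grin2b order. It read 9.20 in the first control, 9.42 in the second mutant and 9.71 in the third control. It then read 9.72 in the third mutant, 9.93 in the second control and 10.07 in the first mutant. Genes that make, move or clear the co-agonists had the same order as the astrocyte markers. Other lists ran with Grin2b rather than against it. From the array with the highest Grin2b to that with the lowest, NMDA receptor signalling genes had mean levels of 9.40, 9.43, 9.35, 9.20, 9.12 and 8.915. Postsynaptic scaffolds had 8.97, 9.04, 8.99, 8.94, 8.69 and 8.52 on the same arrays. The part of astrocyte RNA, or of what these other lists mark, in the Grin2b values was not tested.

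**Figure D4:**
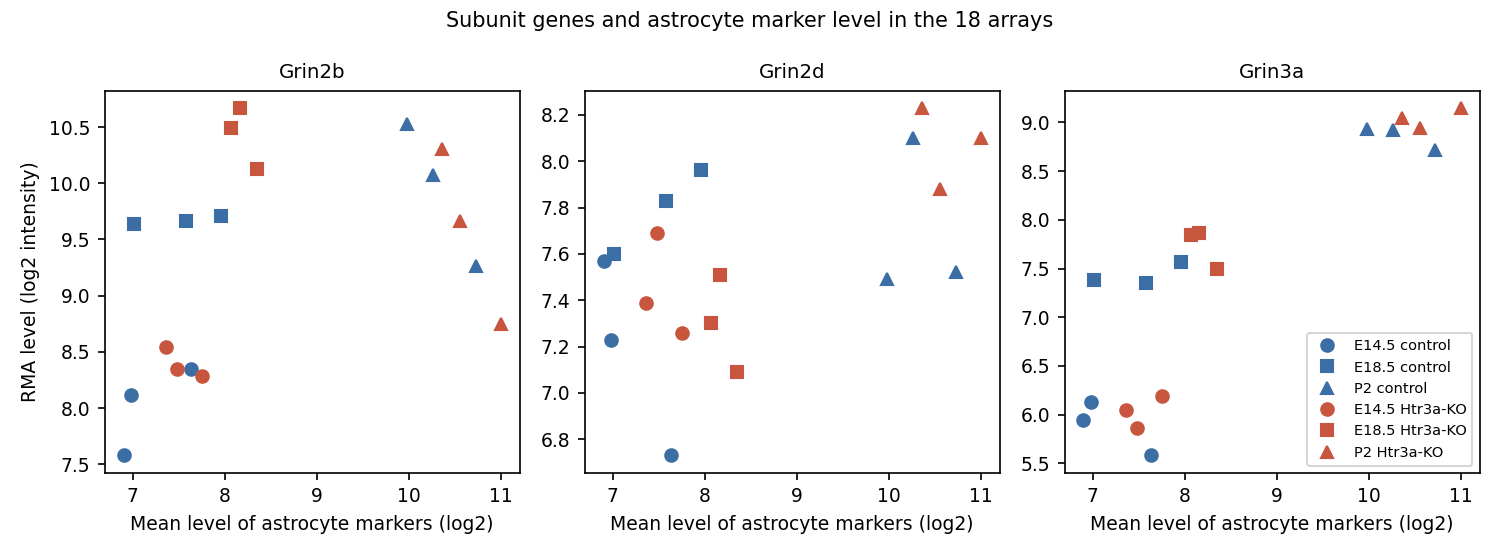
Log2 signal of Grin2b, Grin2d and Grin3a (vertical axes of different range) against the mean log2 level of the 10 astrocyte markers (horizontal axis) on the 18 arrays, by age and genotype; each point is an array. At P2 the marker level runs from 9.98 to 11.003, Grin2b from 10.53 to 8.75 and Grin3a from 8.72 to 9.15.

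Other cell markers moved with age beside the subunits. Excitatory neuron markers had mean levels of 10.25 to 10.85 in the E14.5 controls, then 9.47 to 9.73 in those of E18.5 and 8.45 to 8.65 in those of P2, with 5 of 11 tested called lower at the first step and 6 of 11 at the second, against 4.93% and 9.76% of all genes. Oligodendrocyte lineage markers had levels of 6.76 to 6.97, 8.55 to 9.34 and 10.39 to 10.72 at the 3 ages. Of these, 7 of 8 tested were called higher at each step, against 6.06% of all genes at the first and 9.97% at the second. Of the astrocyte markers 1 of 10 was called higher at the first step, a count near the share of all genes, and 8 of 10 at the second. Markers of interneurons from the caudal ganglionic eminence, the labelled origin, had levels of 7.58 to 7.82, 8.47 to 8.85 and 8.60 to 8.77. Of these, 6 of 12 were called higher at the first step, against 6.06% of all genes. GABAergic markers had mean levels of 8.97 to 10.78, 9.05 to 9.57 and 8.95 to 9.28, with 2 of 7 tested called lower at the first step. Striatal projection neuron markers had 8.66 to 10.44, 7.35 to 7.60 and 7.60 to 7.78, with 5 of 9 tested called lower at the first step (median -1.06). At the second step 3 of 8 endothelial and mural markers and 2 of 9 microglia markers were called higher, against 9.97% of all genes. These lists moved over the steps at which Grin2b and Grin3a rose, and their part in it was not tested. Markers of interneurons from the medial ganglionic eminence were present too, at 9.34 to 9.53, 9.48 to 9.70 and 9.07 to 9.57 in the controls. Of the 8 tested, 1 was called higher at the first step and 1 lower at the second, against 6.06% and 9.76% of all genes.

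The genes that work with the receptor were read from fixed lists. Among scaffolds, the proteins that hold receptors at the synapse, 3 of 10 tested were called higher at the first control step, 1 lower and 6 neither way, against 6.06% and 4.93% of all genes, with a median of 0.34. Dlg2, a scaffold that binds the tails of Grin2 subunits, read 6.36, 7.12 and 6.86 before and 8.65, 8.51 and 8.70 after this step, a rise of 1.84 (SE 0.30; adjusted p = 0.00114 by limma), or 3.58-fold. Dlgap1, which links Dlg proteins to Shank proteins, stood at 7.60, 8.15 and 7.76 and then at 9.84, 9.46 and 9.09, a rise of 1.63 (adjusted p = 0.00844), or 0.83 with the mean of its probe sets (adjusted p = 0.00578). Both are the called scaffolds with the smallest p and do not stand for the list. Shank3 was also called higher, at 0.70 (named after its values were seen at this step), which missed the threshold without the third E18.5 control array (adjusted p = 0.0537). The 1 called lower was Dlg1, at -0.44, named after its values were seen; its call was lost when array 3 of the E14.5 controls, or array 1 or 3 of the E18.5 controls, was left out (adjusted p up to 0.135).

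Among enzymes and signalling proteins that act on or below the receptor, 4 of 12 tested were called higher at the first control step, against 6.06% of all genes, and none lower, with a median of 0.34. Camk2b, a subunit of the calcium-dependent kinase that binds Grin2b, read 7.22, 7.34 and 7.48 before and 9.21, 8.83 and 9.47 after this step, a rise of 1.82 (SE 0.24; adjusted p = 2.70e-04 by limma), or 3.54-fold. Rasgrf2, a calcium-regulated activator of Ras, rose by 2.18 (SE 0.40; adjusted p = 0.00259), from 7.92, 6.02 and 6.55 to 9.23, 8.65 and 9.15, or by 1.17 with the mean of its probe sets (adjusted p = 0.00639). The E14.5 arrays of Rasgrf2 were thus far more spread than its E18.5 arrays, but the ages did not overlap. The others were Ptk2b, a calcium-sensitive tyrosine kinase (1.63), and Nos1, the neuronal nitric oxide synthase (0.83), both named after their values were seen. Nos1 lost its call without the first or second E14.5 or the first E18.5 control array (adjusted p up to 0.0722). It also lost it in a limma fit of only the arrays compared (adjusted p = 0.0548). Among transport proteins and other partners 1 of 10 tested was called, a share near that of all genes, Neto1, an auxiliary subunit, by 0.77 (adjusted p = 0.0457), and 16 of 28 other settings or left-out arrays left it above the threshold (adjusted p up to 0.195).

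At the second control step the counts of these lists were close to the share of all genes called (9.97% higher and 9.76% lower): 1 of 10 scaffolds was called higher (Shank3, 0.53, adjusted p = 0.0297 by limma), 1 of 12 signalling genes higher (Ptk2b, 1.32, adjusted p = 0.0151) and 1 lower (Nos1, -0.76, adjusted p = 0.0132), and 1 of 10 transport genes higher (Pacsin1, which helps to internalise Grin3a receptors, 0.63, adjusted p = 0.0180). Each of these lost its call when single arrays were left out: Shank3 without E18.5 control array 1 or 2 or P2 control array 1 or 3, Ptk2b without E18.5 array 1 or 2 or P2 array 3, Nos1 without E18.5 array 1 or P2 array 2, and Pacsin1 without E18.5 array 2 or P2 array 2 or 3; averaging the probe sets also ended the call of Pacsin1 (adjusted p = 0.0962). The medians of the 3 lists were -0.08, 0.00 and 0.11. Grin3a rose by 1.42 over the same step.

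Genes that make, move or clear the co-agonists followed another course. None of 11 was called at the first control step, where 1 had an unadjusted p under 0.05 (median 0.08), and 7 of 11 were called higher at the second (median 1.23; 9.97% of all genes), a count of 5 to 8 when single arrays were left out. Slc7a10, a transporter of D-serine and glycine, read 6.27, 6.45 and 6.03 in the E18.5 controls and 8.81, 9.03 and 8.35 in the P2 controls, a rise of 2.48 (SE 0.21; adjusted p = 2.85e-06 by limma), or 5.58-fold. Slc6a9, a glycine transporter, stood at 7.63, 7.58 and 7.73 and then at 9.11, 9.54 and 9.21, a rise of 1.64 (SE 0.15; adjusted p = 5.07e-06), or 3.12-fold, and 0.92 with the mean of its probe sets (adjusted p = 5.53e-05). In the mutants 7 of 11 were also called higher at this step, against 13.5% of all genes, with Slc7a10 at 2.73 and Slc6a9 at 2.07. Both genes are also known from astrocytes, whose markers rose at the same step in both genotypes, and the part of these cells in the values was not tested.

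**Figure D5:**
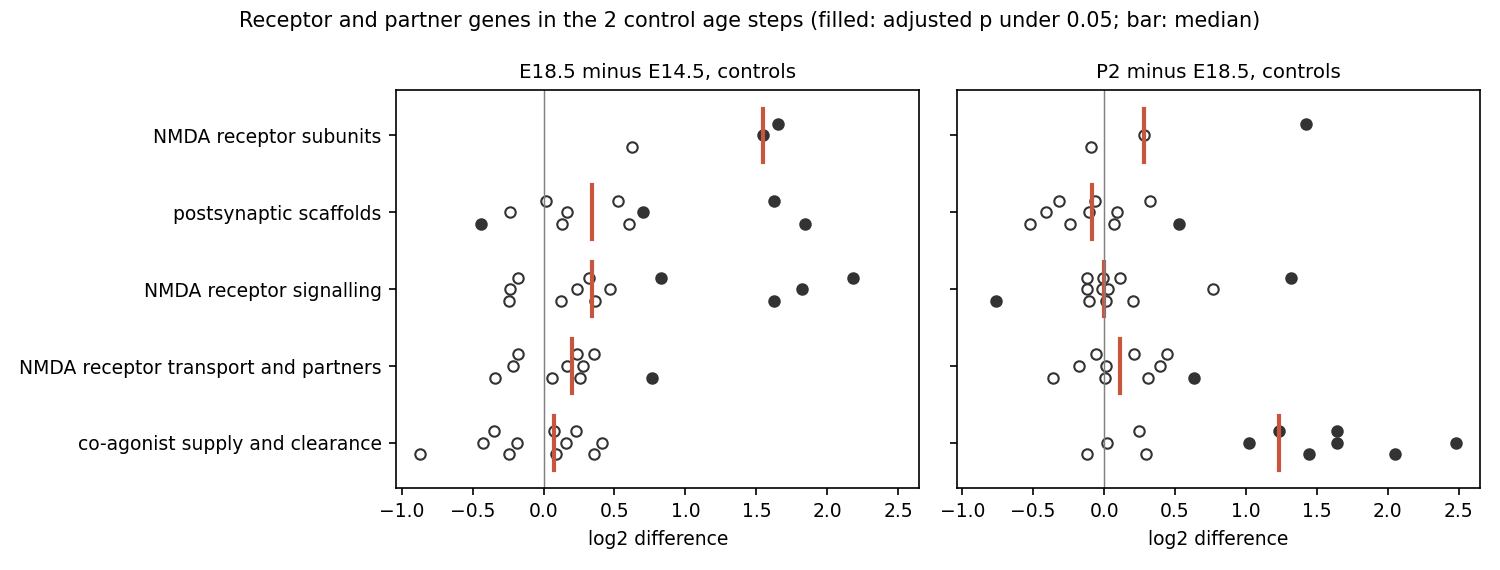
Log2 differences of the listed receptor partner genes (points, horizontal axis; filled where called) at the first and second age step of the controls, by list (vertical axis), with the subunits on top and bars at the medians. Scaffold and signalling lists have medians of 0.34 at the first step and of -0.08 and 0.00 at the second, while the co-agonist list moves from 0.08 to 1.23.

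The subunits did not follow each other closely. Over the 18 arrays the correlation of log2 values was 0.72 between Grin2b and Grin3a, 0.63 between Grin2d and Grin3a and 0.28 between Grin2b and Grin2d. The genes whose profiles were most like that of Grin3a were Slc24a3 (0.99), Fam171b (0.98) and Omg (0.98). Those most like Grin2b were Sel1l (0.97), Agtpbp1 (0.95) and Ablim1 (0.95), and those most like Grin2d were Trabd2b (0.88), 4933406F09Rik (0.87) and Rd3 (0.83). These are descriptions over 18 arrays that share age, genotype and cell makeup, chosen as the highest among all genes tested.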

How the data were processed

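RNA of sorted cells was hybridised to Affymetrix mouse whole-genome arrays. Per the labels and the series' design text, the authors normalised the signals by robust multi-array average (RMA) in Partek Genomic Suite 6.6; the deposited values are log2 signals of 45101 probe sets, 64 of them controls. RMA is known to compress differences of dim probe sets, which bears on Grin2a and Grin2c. The annotation gives 34945 probe sets a single gene symbol, 932 several and 9160 none.

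Single-gene probe sets whose mean over the 18 arrays exceeded the lowest 30% of all non-control probe sets (log2 5.255) were kept. The brightest for each gene was used, which left 14288 genes. limma 3.58.1 in R 4.3.3 fitted 6 group means (12 residual degrees of freedom); contrasts were two-sided, with Benjamini-Hochberg adjustment over all genes and a call at adjusted p under 0.05. Means are given ± SD, differences with SE or 95% intervals. The unfiltered fit covered all 34945 single-gene probe sets. The number of arrays limits the precision; an exact permutation test of 3 against 3 cannot go below 0.1. The code was tested on simulated data.

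The members, the 16 gene and marker lists and the tests were chosen with earlier results of these data known. Named partner genes are, for each list and control step, up to 2 called genes with the smallest p; for likeness, 3 genes for each tested member. Same-numbered arrays did not deviate together, so replicate numbers were not used as pairs. Promoter sequences are from RefSeq.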

Additional observations from a re-analysis of the deposited data

How the results depend on the processing

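Of 918 recomputed values of the 3 tested subunits, 894 kept their direction and side of the threshold, 8 fell below it, 9 came to pass it and 7 turned direction; none of the 7 was a called difference. Of 306 recomputed counts of called subunits 291 were identical and 15 differed, 3 of them by more than 1.5 times. The other differences were all by 1 gene: in the controls the first step and P2 against E14.5 each ran from 2 to 3. With array weights the count at E18.5 between genotypes was 2 in place of 0. With single arrays left out, the count in the mutants ran from 1 to 3 for P2 against E18.5 and from 1 to 3 for P2 against E14.5. The turned values were small: for the second control step Grin2b was -0.10 with the mean of its probe sets, and -0.0050 to 0.63 with single arrays left out, and Grin2d -0.29 to 0.013; for the mutants against controls Grin3a at E14.5 was -0.0043 with array weights and -0.0017 to 0.27 with single arrays left out, Grin2b at P2 -0.75 to 0.027, and Grin2d over the ages -0.028 to 0.11. The cause was not tested. Grin3a passed both control steps in all 28 alternatives (adjusted p by limma 2.14e-06 to 0.00559 and 6.52e-06 to 0.00157), and Grin2b the first (3.51e-04 to 0.0313). These alternatives read the brightest probe set or the mean of the probe sets, never another probe set alone. In the unfiltered limma fit the second Grin3a probe set did not pass the first step (adjusted p = 0.0696). Its dim probe set passed neither step (adjusted p = 0.635 and 0.525), and the flat ones of Grin2b did not pass the first. With the replicate number as a block the counts of called subunits were unchanged, at 2, 1 and 2 in the control steps; deviations of same-numbered arrays correlated at a median of 0.0073 (-0.54 to 0.38), and 4 of 18 arrays correlated best with their own number. The fit of only the arrays compared does not apply to the mean over ages or the interaction. The alternatives for partner lists were added after the data were seen. Dim signals limit what can be read of Grin2a and Grin2c.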
